A study of Mus musculus with 30 samples.

Results

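Odorant receptors are G-protein coupled receptors of olfactory sensory neurons, and each mature neuron of the olfactory mucosa expresses a single odorant receptor (OR) gene. OR genes lie in clusters, and the choice of genes in a cluster depends on enhancers in or near it. The P element is such an enhancer within the P cluster of chromosome 7, and the H element acts on a cluster of another chromosome. The 5 genes described here, Olfr695, Olfr701, Olfr703, Olfr708 and Olfr716, are OR genes of the P cluster. They were chosen by their counts in mice that lack both elements, where each kept more than 50% of its wild-type level. The limit of 50% alone does not set them apart, since 8 other P cluster genes also passed it, at 69.9% or more. The table of counts has 564 OR genes, of which 23 belong to the P cluster, and the 5 genes are among these 23. Olfr695, Olfr701 and Olfr703 are receptors of the MOR283 family, and Olfr708 and Olfr716 of the MOR260 family.

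The RNA came from the whole olfactory mucosa of mice aged 21 days, with 1 mouse and 1 μg of RNA per lane of a NanoString cartridge of 12 lanes. NanoString counts single RNA molecules that have bound a pair of probes, with no amplification. There were 5 groups of 6 mice. The ΔHxΔP mice, labelled ΔP (Berry) x ΔH, were homozygous for the deletion of the H element and for that of the P element, in a mixed C57BL/6J x 129SvEv background, and were read on cartridge MK29 (1 female and 5 males). The other lanes of MK29 held wild-type mice of the companion strain in the same mixed background (3 females and 3 males). Cartridge MK37 held mixed wild-type mice of the companion strain of ΔH (4 females and 2 males). Cartridge MK38 held inbred wild-type 129S6/SvEvTac mice (4 females and 2 males) and homozygous ΔOlfr7Δ mice (2 females and 4 males). These carry a deletion of the Olfr7 cluster of another chromosome in the 129SvEv inbred background. Mutants filled lanes 7 to 12 of MK29 and of MK38, after the wild types, so genotype and place on the cartridge cannot be told apart. Both elements are absent together in ΔHxΔP mice, so the parts of the H and P deletions cannot be told apart here, and whether the P cluster of a mixed mouse came from C57BL/6J or 129SvEv is not given in the labels.

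The counts of all OR genes added up to between 618163 and 1013430 in a lane. Values below are normalized counts, scaled between lanes on the positive controls and on Omp, Gnal, Cnga2, Ano2 and Adcy3, 5 genes that mature neurons of this tissue express, with the background of the lane subtracted. That background lay between 32.4 and 56.2 counts, and each of the 5 receptors was above it in every lane. The neuronal marker Omp had group means between 107570 and 111995 normalized counts in all 5 groups. Omp is itself among the genes used for the scaling, so these means cannot show whether neuron content was equal between groups. Counting efficiency differs between probes, so levels are compared between mice and not between genes. In RNA of a whole tissue, fewer neurons that express a receptor and less RNA per neuron cannot be told apart.

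Each receptor was counted through a capture probe and a reporter probe of 50 bases, which bind next to each other on the transcript. They are shown because they define what was counted. Capitals mark the bases at which a probe differs from the OR probe most similar to it in the panel, in the best alignment without gaps.
Olfr695 capture probe: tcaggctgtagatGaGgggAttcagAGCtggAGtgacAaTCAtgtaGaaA
Olfr695 reporter probe: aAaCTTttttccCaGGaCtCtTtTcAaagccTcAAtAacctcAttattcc
Olfr701 capture probe: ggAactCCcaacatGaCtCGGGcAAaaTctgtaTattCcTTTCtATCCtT
Olfr701 reporter probe: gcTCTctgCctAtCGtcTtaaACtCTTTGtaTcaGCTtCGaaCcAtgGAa
Olfr703 capture probe: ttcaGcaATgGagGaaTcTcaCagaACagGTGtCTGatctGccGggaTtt
Olfr703 reporter probe: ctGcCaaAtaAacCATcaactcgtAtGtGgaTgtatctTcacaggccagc
Olfr708 capture probe: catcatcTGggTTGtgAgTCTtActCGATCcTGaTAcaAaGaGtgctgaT
Olfr708 reporter probe: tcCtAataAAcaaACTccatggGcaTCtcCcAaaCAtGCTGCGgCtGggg
Olfr716 capture probe: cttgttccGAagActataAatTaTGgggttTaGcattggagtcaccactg
Olfr716 reporter probe: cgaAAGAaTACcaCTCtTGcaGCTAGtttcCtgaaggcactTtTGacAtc

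The closest match over the 10 probes was between the capture probe of Olfr716 and that of Olfr390, with 39 of 48 aligned bases in common. The most similar probe belonged in all 10 cases to a gene outside the P cluster. RefSeq names 4 of the receptors by the same symbols, and lists Olfr708 as an older symbol of Olfr1532-ps1, which carries the mark of a pseudogene. Its probes counted 749 to 1700 molecules per mouse on the normalized scale. The target of its capture probe shares 45 bases with the end of the RefSeq window around the gene start.

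Promoter windows of 300 bases (250 before and 50 after the annotated start) were read from RefSeq for build GRCm38.p6 and searched on both strands for TAATTA and TAATTG, the letters bound by LIM-homeodomain factors. Olfr703 and Olfr716 held such letters and are printed with the matches in capitals. On the opposite strand TAATTG reads CAATTA.
Olfr703 chr7:106844363-106844662 (plus strand): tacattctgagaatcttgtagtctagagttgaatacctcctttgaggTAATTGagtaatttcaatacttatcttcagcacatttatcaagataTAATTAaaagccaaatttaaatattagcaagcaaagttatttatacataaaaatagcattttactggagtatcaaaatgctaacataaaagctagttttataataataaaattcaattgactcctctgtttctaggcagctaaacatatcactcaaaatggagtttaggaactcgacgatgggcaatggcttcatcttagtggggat
Olfr716 chr7:107147048-107147347 (plus strand): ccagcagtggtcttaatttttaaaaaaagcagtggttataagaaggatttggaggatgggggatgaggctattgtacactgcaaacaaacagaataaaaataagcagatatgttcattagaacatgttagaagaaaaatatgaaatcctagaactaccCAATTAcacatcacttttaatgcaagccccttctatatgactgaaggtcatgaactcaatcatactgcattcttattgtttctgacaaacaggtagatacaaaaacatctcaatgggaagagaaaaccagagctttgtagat

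The window of Olfr703 held TAATTA and TAATTG, and that of Olfr716 held TAATTG, while those of Olfr695, Olfr701 and Olfr708 held neither. Either motif was in 37.3% of 948 OR windows and in 12.4% of 32851 windows of all genes. The gene model of Olfr703 begins with an ATG, so its window holds the 250 bases before that ATG and the 50 bases that start with it. The windows ran from 30.7% GC in Olfr703 to 43.3% GC in Olfr701, with a median of 35.0% GC over OR windows.

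In ΔHxΔP mice the 5 receptors were at 55.9% to 65.1% of their mean level in the 12 wild-type mice of mixed background. This is the contrast that chose them, so the values are given as a description with no test. Olfr695 had 3714 to 4285 normalized counts (median 3773) in MK29 wild types, 3071 to 3609 (median 3335) in those of MK37, and 2189 to 2442 (median 2362) in ΔHxΔP mice. All 6 mutants lay below all 12 wild-type mice, and the level kept was 65.1% with an SD of 2.59 over mutants. Olfr701 had 385 to 514 (median 432) and 348 to 414 (median 373) normalized counts in MK29 and MK37 wild types, against 221 to 288 (median 258) in the mutants. It kept 64.0% ± 5.65 (SD, n = 6) and its groups did not overlap either.

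Olfr703 was the third MOR283 receptor and of these the one with the widest spread in mutants. It had 267 to 380 (median 348) normalized counts in wild-type mice of MK29, 287 to 340 (median 308) in those of MK37 and 157 to 248 (median 198) in mutants, and kept 61.6% ± 10.5 (SD, n = 6). The highest mutant, at 248, stood close under the lowest wild-type mouse, at 267. For the MOR260 receptor Olfr708 the ranges were 1330 to 1700 (median 1521) in MK29, 1090 to 1432 (median 1403) in MK37 and 749 to 1005 (median 846) in mutants. Its level kept was 60.9% ± 6.61 (SD, n = 6), again with no mutant inside the wild-type range.

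Olfr716, the other MOR260 receptor, had a wild-type level that depended on the group. Its wild-type mice had 1483 to 2029 (median 1735) normalized counts on MK29 and 2196 to 2706 (median 2421) on MK37, and its mutants 992 to 1602 (median 1095). The mutants overlapped the wild-type range because of mouse 6, at 1602, and the next highest mutant had 1201. Olfr716 kept 55.9% ± 10.9 (SD, n = 6) of the level of both wild-type groups together. It kept 66.2% of the level of MK29 and 47.2% of that of MK37, so that against the latter it fell under the 50% that the choice asked for. The other 4 receptors kept 56.8% to 60.7% of the MK29 level and 63.7% to 69.8% of the MK37 level. Thus 4 of the 5 receptors had groups that did not overlap, where 7.90% of 557 informative OR genes were below the wild-type range in this way. An adjusted p under 0.05 with a lower level in mutants was reached by 23.7% of the 557 genes. Nothing is read from these counts, since the contrast chose the genes.

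**Figure D1:**
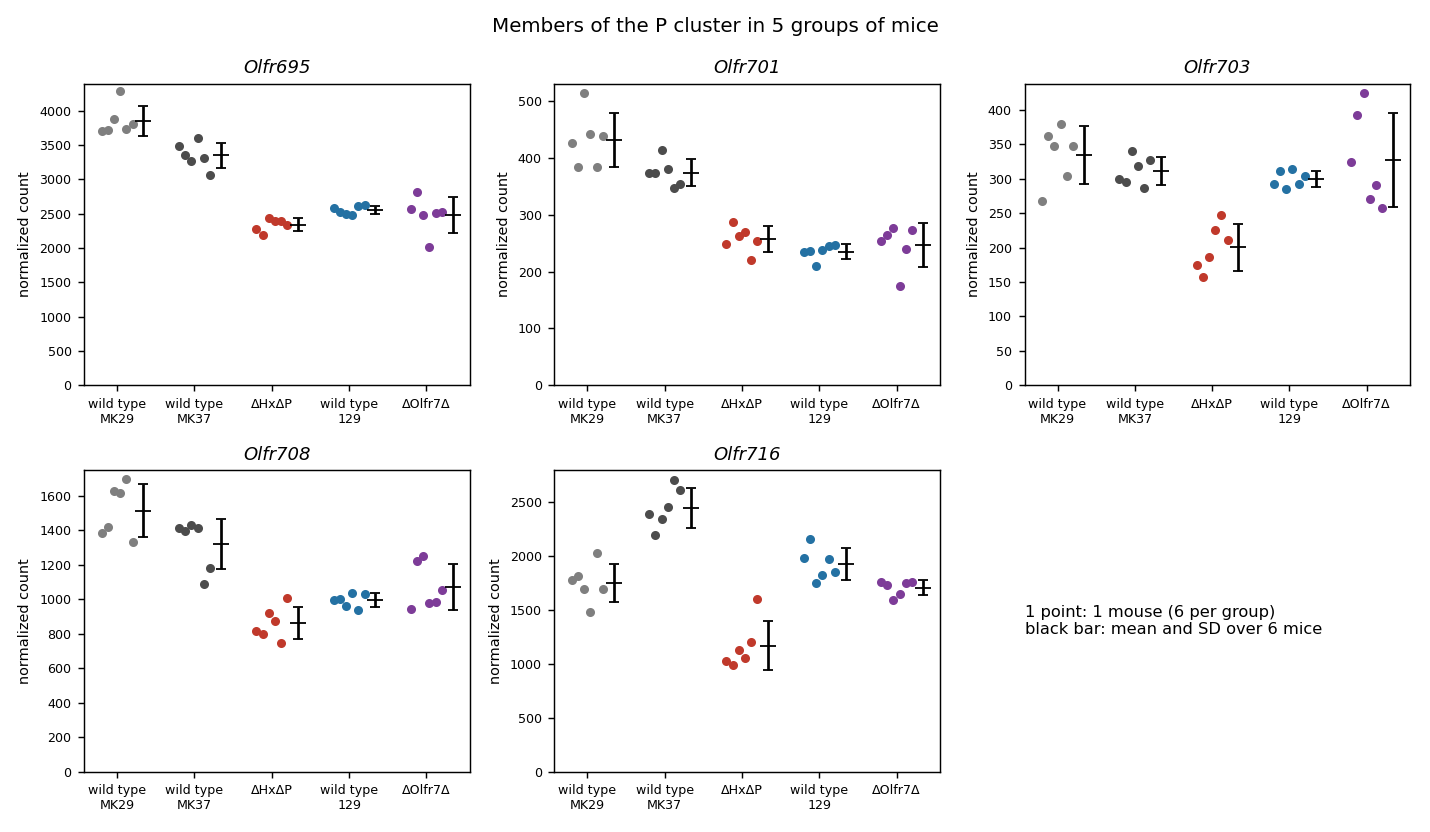
Normalized counts (linear vertical axes from 0) of the 5 receptors in each of 30 mice, with 1 panel per gene and 1 column per group; black bars give the mean and SD over 6 mice. For Olfr695, Olfr701 and Olfr708 both groups of inbred 129 mice lay near the ΔHxΔP mice, while for Olfr703 the ΔHxΔP mice, at 157 to 248, lay under all 24 other mice.

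Along the cluster the 5 receptors did not form a block. Of 22 P cluster genes read in ΔHxΔP mice, 13 kept more than 50% of the level of the 12 wild-type mice, the 5 receptors and 8 others. The measured neighbours of Olfr695, Olfr694 and Olfr697, kept 88.8% ± 11.9 and 89.5% ± 25.5 (SD over 6 mutants). Olfr701 lies between Olfr699, at 69.9%, and Olfr702, at 70.1%. Olfr703 lies between Olfr702 and Olfr704, which kept 17.3% ± 2.15 (SD, n = 6), so that neighbouring genes of 1 family stood at 61.6% and 17.3%. Olfr708 lies between Olfr706, at 48.3%, and Olfr710, at 34.0%. At the far end Olfr716 follows Olfr715, which was higher in mutants than in wild-type mice, at 132% ± 13.2 (SD, n = 6).

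The limit of 50% fell between genes with near values. The gene just inside it was Olfr716, at 55.9%, and those just outside were Olfr706, at 48.3% ± 4.44, and Olfr705, at 45.8% ± 4.34 (SD over 6 mutants). Against the wild-type mice of MK29 alone Olfr706 kept 50.4% and Olfr705 kept 50.9%. On the upper side values were near too, with Olfr695 at 65.1% ± 2.59 and Olfr699, not among the 5, at 69.9% ± 12.6 (SD over 6 mutants). For comparison Olfr2, the I7 receptor, kept 0.474%, Olfr711 kept 0.768% and Olfr6 kept 2.78%, while Olfr17, the P2 receptor, kept 82.2%. Olfr2 was above the background in 4 of 6 mutant lanes and Olfr711 in 5. Lanes under it took the background of the lane as their value, which was 34.3 to 50.9 counts in these mice. This is above the lowest normalized counts of Olfr2 (3.706) and Olfr711 (1.702) in mutants. The shares of Olfr2 and Olfr711 (SD 0.494 and 0.756) thus rest on counts near the background and on filled values that can raise them. The median over 535 informative OR genes outside the P cluster was 97.0%.

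**Figure D2:**
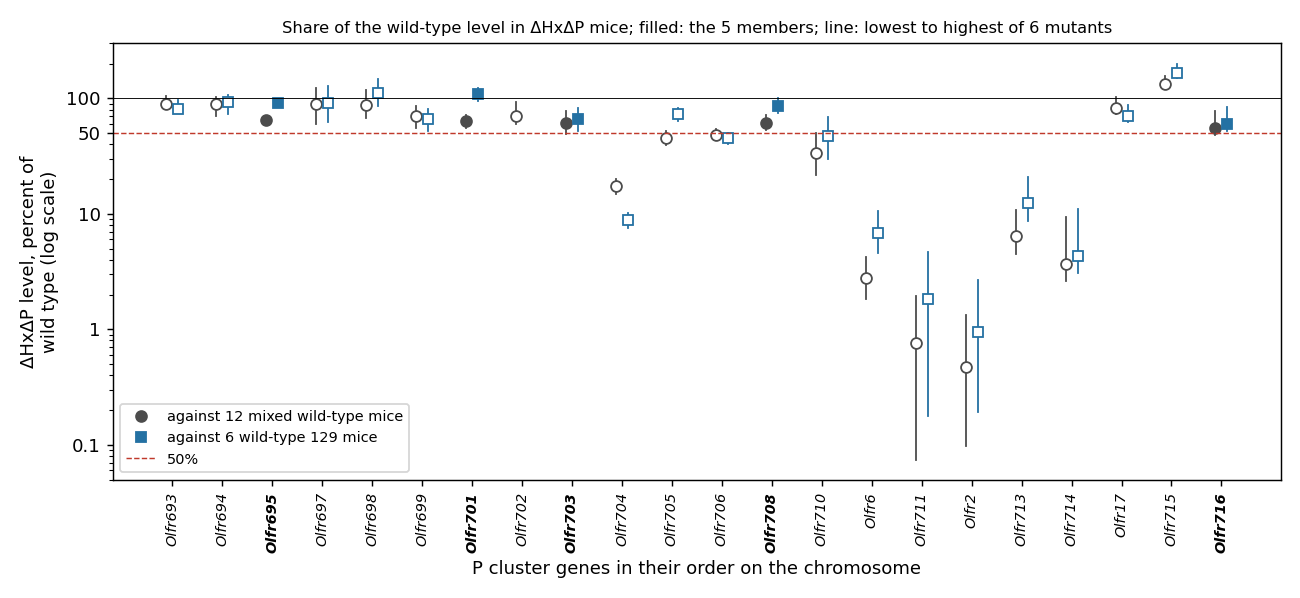
Level in ΔHxΔP mice as a percent of wild type (log axis) for 22 P cluster genes in chromosomal order; circles are against 12 mixed wild-type mice, squares against 6 wild-type 129 mice, filled marks are the 5 receptors, and vertical lines run from the lowest to the highest of 6 mutants. Circles of the 5 receptors lie between 55.9% and 65.1%, scattered among genes at 0.474% to 132%. The lowest circles, of Olfr2 and Olfr711, rest on counts near the background. Squares of Olfr695, Olfr701 and Olfr708 lie nearer to 100%.

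The levels of the receptors in wild-type 129 mice were then compared with those of the 12 mixed wild-type mice. The choice did not use the 129 mice, but it did use the mixed mice, as the level against which the share kept was taken, so the p-values here are not independent of it. Olfr695, Olfr701 and Olfr708 were lower in 129 mice, while Olfr703 and Olfr716 did not pass the test. Of 549 OR genes, 70.5% passed the same test and 37.7% passed it with a lower level in 129 mice. All 3 receptors called were lower, so 37.7% is the like share. Nothing is read from a count among 5 chosen genes. Strain and cartridge cannot be told apart in this comparison, since all 129 mice were on MK38.

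Olfr701 had 209 to 247 normalized counts (median 237) in wild-type 129 mice, under all 12 mixed mice (348 to 514). It was 1.71-fold lower (M = -0.77, SE 0.08, adjusted p = 3.1e-08 in limma), with M the log2 difference between groups. Olfr695 had 2488 to 2625 (median 2558), under the lowest mixed mouse at 3071, and was 1.41-fold lower (M = -0.49, SE 0.06, adjusted p = 1.49e-07). Olfr708 had 937 to 1039 (median 1000), also under all mixed mice, and was 1.42-fold lower (M = -0.50, SE 0.08, adjusted p = 5.67e-06). Groups that did not overlap, with lower levels in 129 mice, were found for these 3 receptors and for 24.6% of the 549 genes.

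Olfr703 had 285 to 314 normalized counts (median 299) in wild-type 129 mice, within the mixed range of 267 to 380. Its difference was -0.10, with a 95% interval from -0.26 to 0.06 (adjusted p = 0.264). Olfr716 had 1751 to 2161 (median 1913), also within the mixed range, with M = -0.10 and an interval from -0.33 to 0.13 (adjusted p = 0.407). For Olfr716 the mean over both mixed groups covered opposite signs. Against MK29 alone M was 0.14 (adjusted p = 0.077) and against MK37 alone -0.35 (adjusted p = 7.46e-05).

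The other P cluster genes were also lower in 129 mice more often than higher, with 9 lower and 2 higher of 16 tested, and a median M of -0.28 beside -0.005 over all 549 genes. The other counted MOR283 genes had a median M of 0.02 (1 higher, 2 lower, 5 not called), with Olfr704 higher and Olfr705 lower. Of the MOR260 genes beside Olfr708 and Olfr716, both that were tested were lower. Of the genes with the lowest levels in ΔHxΔP mice, Olfr6 was 2.48-fold lower in 129 mice (M = -1.31, adjusted p = 1.52e-14) and Olfr2 was 1.99-fold lower (M = -0.99, adjusted p = 2.94e-14). Of the reference genes, Ano2 was lower (M = -0.21, adjusted p = 2.05e-05) and Adcy3 (M = 0.13, adjusted p = 0.000646) and Omp (M = 0.04, adjusted p = 0.0254) were higher in 129 mice, and their part in these differences was not tested.

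The levels in ΔHxΔP mice were also set beside those of wild-type 129 mice. Olfr701 stood at 109% ± 9.66 (SD over 6 mutants) of the 129 level, Olfr695 at 91.5% ± 3.65, Olfr708 at 86.2% ± 9.36, Olfr703 at 66.0% ± 11.3 and Olfr716 at 60.0% ± 11.7. The narrower range of shares beside mixed wild-type mice is not compared with these, since it chose the genes. These percents have no test, for they set mice of different cartridges and backgrounds side by side. The mutants and 129 mice overlapped for Olfr701 and Olfr708. For Olfr695 the highest mutant, at 2442, was just under the lowest 129 mouse, at 2488. For Olfr703 and Olfr716 all 6 mutants were below all 6 wild-type 129 mice. The part of the strain background in the levels of ΔHxΔP mice was not tested.

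The 2 mixed wild-type groups served together as controls, and their difference was tested on its own, although both groups entered the choice of the receptors. Olfr716 was 1.40-fold higher in the mice of MK37 than in those of MK29 (M = 0.49, SE 0.07, adjusted p = 8.54e-05 in limma), with all 6 mice of MK37 above all 6 of MK29. Olfr695 was 1.15-fold lower (M = -0.20, SE 0.06, adjusted p = 0.00697), and its groups did not overlap either. Thus 2 of 5 receptors were called, against 40.0% of 557 OR genes (29.6% higher and 10.4% lower), and the groups did not overlap for 2 of 5, against 20.3%.

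The other 3 receptors had lower means in MK37 without passing the test. Olfr701 and Olfr708 had near values, with M = -0.20 for each (SE 0.09 and 0.09, adjusted p = 0.0804 and 0.0755). Olfr703 had M = -0.10 with a 95% interval from -0.31 to 0.12 (adjusted p = 0.461). Over all 557 genes the median M was 0.11, and 165 genes were higher and 58 lower. When the median ratio of OR genes set the scale of a lane instead, that median became 0.00, with 97 genes higher and 110 lower. On that scale Olfr716 was still higher (M = 0.38, adjusted p = 0.00148), and Olfr695, Olfr701 and Olfr708 were all lower (M = -0.31 for each). On the positive controls alone Olfr695 was no longer called (M = -0.11, adjusted p = 0.315). The other P cluster genes had a median M of -0.02, with 2 higher, 4 lower and 11 not called. Among them Olfr704, beside Olfr703, was 1.45-fold lower and Olfr17 was 1.20-fold lower. Colony and cartridge cannot be told apart in this comparison.

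**Figure D3:**
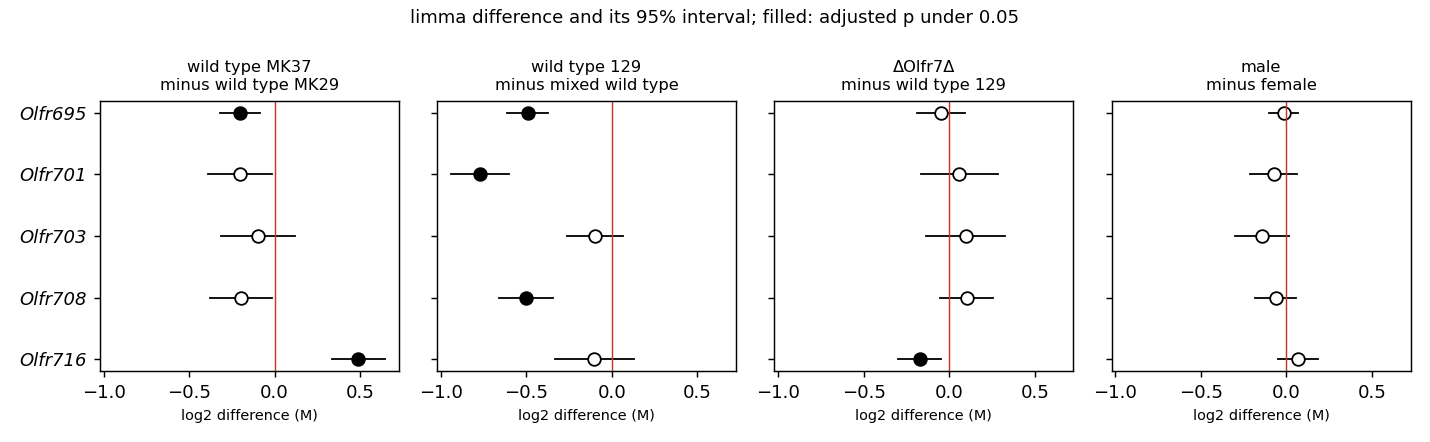
Log2 differences (M, horizontal axes) of the 5 receptors in 4 comparisons, as points with 95% intervals from limma; filled points had an adjusted p under 0.05. Olfr701 shows the largest difference in size, -0.77 in wild-type 129 mice, and Olfr716 is the receptor that was higher in MK37 than in MK29, by 0.49.

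The deletion of the Olfr7 cluster, on another chromosome, gave a comparison within 1 cartridge, among inbred 129 mice. The wild types are labelled as mice of Charles River Laboratories and the mutants by their own strain. Genotype and source of the mice thus cannot be told apart. Of the 5 receptors Olfr716 alone was called, with a lower level in mutants. Of 552 OR genes 38.6% were called, and 11.8% were called with a lower level. These 552 include genes of the Olfr7 cluster, which the mutants lack, so the deletion itself makes up part of both shares. Olfr716 had 1751 to 2161 normalized counts (median 1913) in wild-type 129 mice and 1595 to 1759 (median 1738) in ΔOlfr7Δ mice, and 4 of 6 mutants lay under all wild-type mice. The difference was 1.13-fold (M = -0.17, SE 0.06, adjusted p = 0.0298). It was not called with all 5 groups in 1 fit (adjusted p = 0.126), nor when any of wild-type 129 mice 1, 2 and 5 or ΔOlfr7Δ mouse 3 was left out (adjusted p from 0.0648 to 0.0811). On the positive controls alone M was 0.01.

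Olfr695, Olfr701, Olfr703 and Olfr708 had M between -0.05 and 0.10 with 95% intervals that stayed within -0.19 and 0.33 (adjusted p from 0.297 to 0.699). The groups overlapped for all 5 receptors, where 20.1% of the 552 genes had groups that did not. That share, and the numbers of lower genes that follow, include genes of the deleted cluster. Over all genes the median M was 0.08, with 148 higher and 65 lower, and 0.26 with 281 higher and 40 lower on the positive controls alone. By the median of ratios it was 0.03, with 115 higher and 88 lower. Among the other P cluster genes 4 of 17 were higher, none was lower, and the median M was 0.07. Olfr715, next to Olfr716, was 1.14-fold higher (M = 0.19, adjusted p = 0.0239).

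None of the 5 receptors was called between males and females. With group as a fixed effect over 30 mice, limma called none of 549 OR genes (0%), and 25 genes had an unadjusted p under 0.05. The receptor with the largest difference was Olfr703, lower in males (M = -0.14, 95% interval from -0.30 to 0.01, adjusted p = 0.903). The intervals of the other 4 ran from -0.21 at the lowest to 0.18 at the highest.

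The order of the 5 groups differed between the receptors. For Olfr695, Olfr701 and Olfr708 the mean was highest in MK29 wild types, then in MK37 wild types, and then in the 2 groups of 129 mice and in ΔHxΔP mice. For Olfr695 these means were 3858 ± 219, 3351 ± 185, 2555 ± 59.5 in wild-type 129, 2485 ± 262 in ΔOlfr7Δ and 2339 ± 93.1 in ΔHxΔP mice (SD, n = 6). The ΔOlfr7Δ mice overlapped both groups next to them in that order. For Olfr701 the 3 lower groups, at 257 ± 22.6 in ΔHxΔP, 247 ± 38.2 in ΔOlfr7Δ and 235 ± 13.8 in wild-type 129 mice, all overlapped. For Olfr708 they were 1073 ± 133, 994 ± 39.8 and 860 ± 93.0 in ΔOlfr7Δ, wild-type 129 and ΔHxΔP mice, each overlapping the next. The wild types of MK29 and MK37 also overlapped for Olfr701 and Olfr708, and for Olfr708 the ΔOlfr7Δ mice overlapped those of MK37.

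For Olfr703 the 4 higher groups had means from 300.2 ± 11.8 to 335 ± 41.7 normalized counts, all overlapping, and ΔHxΔP mice had 200.3 ± 33.9 (SD, n = 6). For Olfr716 the order was MK37 (2449 ± 185), wild-type 129 (1924 ± 147), MK29 (1748 ± 178), ΔOlfr7Δ (1706 ± 68.6) and ΔHxΔP mice (1168 ± 225). Its wild-type 129, MK29 and ΔOlfr7Δ groups overlapped, and MK37 lay above all of them. The ΔHxΔP mice overlapped MK29 and ΔOlfr7Δ through mouse 6.

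The ratio of 2 receptors within a mouse is free of the scaling between lanes. Olfr716 over Olfr708, the pair of the MOR260 family, had a median of 1.23 (0.916 to 1.28) in MK29 wild types and of 1.71 (1.58 to 2.48) in MK37 wild types, with no overlap. In ΔHxΔP mice it was 1.25 (1.21 to 1.60), in wild-type 129 mice 1.91 (1.76 to 2.15) and in ΔOlfr7Δ mice 1.68 (1.27 to 1.86). The median ratio of the mutants lay near that of MK29, while both genes had lower counts in the mutants. Mutant mice 5 and 6, at 1.60 and 1.59, lay above every MK29 wild type and within the range of MK37. Olfr701 over Olfr695, of the MOR283 family, had a median of 0.109 in each of the 3 mixed groups. Its range there was 0.0920 to 0.132, against 0.0837 to 0.0956 (median 0.0936) in wild-type 129 mice. In ΔOlfr7Δ mice it was 0.0867 to 0.111 (median 0.0974), which overlapped both. The receptors were chosen by their levels in ΔHxΔP mice, so mutant ratios near those of mixed wild types follow in part from the choice. Nothing is read from that nearness.

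**Figure D4:**
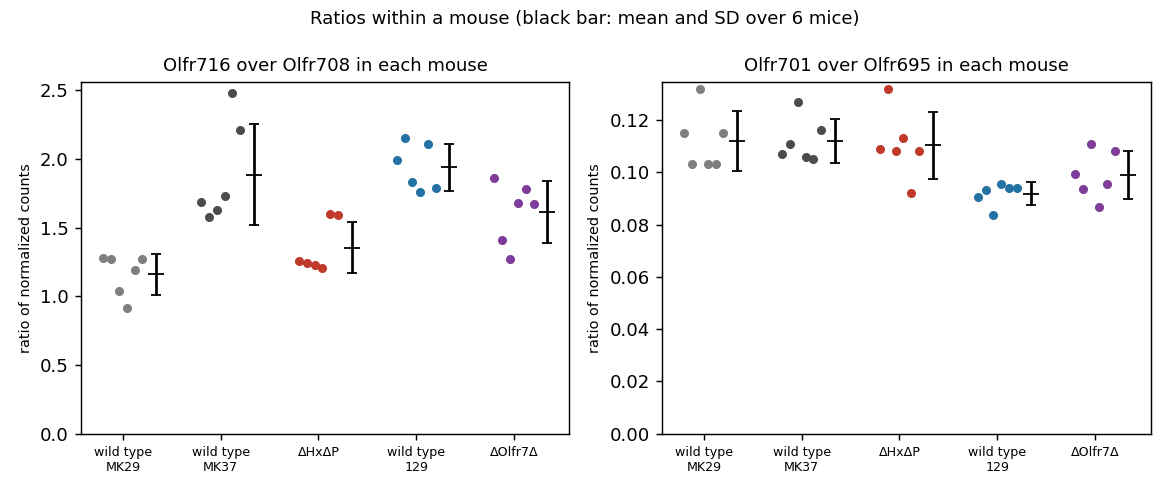
Ratios of normalized counts within each mouse (linear axes from 0) for Olfr716 over Olfr708 and Olfr701 over Olfr695, by group, with the mean and SD over 6 mice in black. The first ratio separates the wild-type mice of MK29 (at most 1.28) from those of MK37 (at least 1.58), and the second has the same median, 0.109, in the 3 mixed groups. Levels in ΔHxΔP mice chose the genes, so nothing is read from mutant ratios near those of wild types.

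The spread between mice also differed between the receptors. Olfr695 had an SD of 0.03 on the log2 scale in wild-type 129 mice, the fifth smallest of 552 OR genes, and of 0.06 in ΔHxΔP mice, where the median gene had 0.19. In ΔOlfr7Δ mice its SD was 0.16, and 64.8% of genes had a smaller one. In the same mice the SD of Olfr703 was 0.29 (94.9% of genes had a smaller one) and that of Olfr701 was 0.25 (89.5%), while that of Olfr716 was 0.06 (2.33%). The SD of Olfr701 includes mouse 4, at 174 normalized counts. These ranks are over genes of all levels, and spread also depends on the level. The median in ΔOlfr7Δ mice was 2515 for Olfr695, 259 for Olfr701 and 307 for Olfr703.

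After the group means were subtracted, the likeness of each receptor to 535 OR genes was taken as Pearson's r of log2 normalized counts over 30 mice, as a description, since all genes of a lane share its RNA and scaling. The genes most like Olfr695 were Olfr466 (r = 0.63) and Olfr186 (0.63), and those most like Olfr701 were Olfr166 (0.62) and Olfr1112 (0.59). Olfr703 was most like Olfr56 (0.63) and Olfr1370 (0.62), and Olfr708 was most like Olfr1463 (0.68) and Olfr1247 (0.65). Olfr716 had the highest value, 0.77 with Olfr768, followed by Olfr523 (0.67). Among the 5 receptors Olfr695 and Olfr701 were most alike (r = 0.56), and r lay between 0.19 and 0.56 for all pairs without Olfr716. For the 4 pairs with Olfr716 it lay between -0.20 and 0.06. Such values were not particular to the 5 receptors. With Olfr17, another P cluster gene, r was 0.62 for Olfr716, 0.54 for Olfr703, 0.40 for Olfr708, 0.32 for Olfr695 and -0.03 for Olfr701. Over all 535 genes the median r ran from -0.12 for Olfr701 to 0.18 for Olfr716, and the 95th percentile from 0.44 for Olfr695 to 0.51 for Olfr716. The 0.19 of Olfr703 with Olfr701 thus lay near the median of Olfr703, 0.16.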

How the data were processed

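The authors deposited raw NanoString counts per probe and lane in 1 table for 30 mice, with no scaling or background subtraction, together with the probe sequences. A sample key above the table and empty cells (Olfr702 was not read on MK38) led to its being recorded as a unit other than plain counts, so count models were not fitted and limma on log2 values took their place. After the methods, lanes were scaled by the geometric mean of 6 positive controls and of 5 reference genes, over all 30 lanes together. The mean plus 2 SD of 8 negative controls was subtracted, and values under 1 were set to the lane's background. The share kept is the ratio of geometric means.

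limma 3.58.1 (R 4.3.3, eBayes with trend) was fitted to all OR genes with a median of at least 100 normalized counts in the wild-type mice compared, with Benjamini-Hochberg adjustment and a limit of 0.05. The 95% intervals are of single genes. The fit was tested on simulated data with known changes. Groups came from the sample labels, and each mouse is 1 replicate. The authors' function fills low values from the backgrounds of other lanes too, which touched none of the 5 receptors. MOR families and gene order follow the study's OR table.

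The receptors and lists were chosen with earlier results of these data known. Genes named beside the receptors are their measured neighbours in the cluster, the genes on either side of the 50% limit, the 2 most like each receptor, the reference genes, and Olfr2, Olfr6, Olfr17 and Olfr711. Olfr390 was named for its probe alone, after the alignment was seen. Alternatives were other scalings, background rules, filters, fits, control groups and leaving out each mouse.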

Additional observations from a re-analysis of the deposited data

Results flagged for a closer look

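Of 25 sets of 6 values (5 receptors in 5 groups), 4 held a mouse whose gap to the next was large beside the range of its group (Dixon's ratio past its 95% limit), as chance gives in about 1 set in 20. Olfr716 in ΔHxΔP mice had mouse 6, a male, at 1602 normalized counts against a next value of 1201 (gap over range 0.658). In that mouse Olfr716 was at 151% of the median of the other 5 mutants, Olfr708 at 124% and the median over OR genes at 117%. Without it Olfr716 kept 52.3% of the wild-type level. Olfr695 in the wild-type mice of MK29 had mouse 4 at 4285 against 3876 (0.716). Olfr701 in wild-type 129 mice had mouse 3 at 209 against 234 (0.677), and in ΔOlfr7Δ mice mouse 4 at 174 against 239 (0.635). In that ΔOlfr7Δ mouse Olfr695 was also the lowest of its group, at 79.7% of the median of the others, while the median over OR genes was at 105%.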

How the results depend on the processing

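The shares kept in ΔHxΔP mice moved by less than their SD over mutants in all alternatives but 3, all of Olfr695, whose SD is small: 60.7% against MK29 alone, 69.8% against MK37 alone and 68.7% by the median of ratios. Leaving out a mouse gave 64.2% to 66.2% for Olfr695, 62.5% to 65.9% for Olfr701, 58.9% to 64.5% for Olfr703, 58.9% to 62.5% for Olfr708 and 52.3% to 57.6% for Olfr716.

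Scaled on the positive controls alone, 321 genes were called for ΔOlfr7Δ in place of 213, M was 0.132 for Olfr695 and 0.008 for Olfr716, both reversed, and Olfr708 was called (0.28). Between MK37 and MK29 1 receptor was called, and 4 by the median of ratios. For sex M reversed to 0.047 in Olfr695 and 0.002 in Olfr708, and by the median of ratios to 0.003 in Olfr695. The methods' tTREAT at a FC of 1.3 and an unadjusted p of 0.01 called 39 genes and 0 receptors for ΔOlfr7Δ (limma with all 5 groups in 1 fit also called 0; at an unadjusted p under 0.05 limma had 257 genes), 21 genes and 0 receptors between MK37 and MK29 (272 in limma), and 139 genes and 1 receptor, Olfr701, for wild-type 129 mice. For Olfr716 in 129 mice M reversed to 0.141 against MK29 alone.

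Leaving out each mouse gave 178 to 236 genes and 0 to 1 receptors for ΔOlfr7Δ, with M of Olfr695 from -0.085 to 0.012, above 0 without mutant mouse 4, 206 to 235 genes and 2 to 3 receptors between MK37 and MK29 (Olfr701 without MK29 mouse 2, Olfr708 without MK29 mouse 6), and 372 to 400 genes and 3 receptors for 129 mice. For sex 0 genes were called each time, and M of Olfr695 ran from -0.033 to 0.002, above 0 without ΔOlfr7Δ mouse 4. The causes were not tested. Scaling by TMM and the edgeR test were not run. No paired analysis was possible because replicate numbers do not come from the labels. Sex is unbalanced between groups.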
